A study of Mus musculus with 9 samples.

Results

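The genes described here are Trp53, the mouse gene of the transcription factor p53, and 9 of its target genes: Mdm2, Ccng1, Zmat3, Btg2, Sesn1, Gdf15, Phlda3, Bbc3 and Bax. They were chosen by name, 10 of the 55487 gene rows in the deposited table, and all 10 passed the filter on low counts, which kept 12813 genes. The 9 libraries hold poly(A) RNA of the mouse mammary gland adenocarcinoma line D2.0R, spelled D2.OR in places. Cells were grown in DMEM with serum and glutamax, loaded with CellTrace Far Red (CTFR), a dye thinned out by division, and held for 1 week in DMEM with 2% serum. They were then sorted into CTFR+ cells, called quiescent, and CTFR- cells, called proliferative. The series title concerns natural killer cells, breast cancer stem cells and dormancy of metastases, and no natural killer cells, drug or genetic change is named for these samples.

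The labels tie none of the 9 libraries to a kind of cell. All carry the same description, which lists CTFR-positive, bulk and CTFR-negative samples, and their titles differ only in a number from 1 to 9. Libraries are therefore called by that number, no library is read as quiescent or proliferating, and no mean, SD or test between sets of libraries is given. Nothing says whether libraries came from separate cultures, so p-values measure only the spread between these libraries, all of 1 cell line. Values are also set out by block of title numbers (1 to 3, 4 to 6, 7 to 9) and by place in the block (1, 4, 7; 2, 5, 8; 3, 6, 9), as a description. Library totals lay between 18732737 estimated counts (library 9) and 41243036 (library 7). Krt8 and Krt18, keratins of simple epithelia, were expressed, but of 6 epithelial markers Epcam, Krt5 and Krt14 did not pass the filter. The 6 leukocyte markers summed to at most 0.255 CPM (a gene's count scaled to the total of its library) in any library, with Ncr1, Klrd1 and Nkg7 at 0 counts in all 9. The 3 macrophage markers summed to 2.82 to 10.98 CPM, nearly all of it Cd68. The 3 endothelial markers summed to at most 0.520 CPM, and Cdh5 was at 0 counts throughout. Of 5 fibroblast markers, which summed to 228 to 866 CPM, only Pdgfra passed the filter. In bulk RNA, a smaller share of cells that express a gene and less RNA per cell cannot be told apart.

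The p53 protein is kept scarce in unstressed cells by Mdm2, a ubiquitin ligase that marks it for destruction and that is itself a p53 target, so that the pair form a feedback loop. DNA damage and other stresses stabilise p53, which binds response elements near its targets and raises transcription of genes that stop the cell cycle, repair DNA, alter metabolism or start apoptosis. Control of p53 is largely at the protein level, so that the level of Trp53 RNA and the activity of p53 are separate quantities. Only RNA was measured here.

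The p53 response element is made of copies of a 10-base motif. The stretches below are shown because they carry matches to it, by the rule given here, in promoters of the genes described. RefSeq promoters (GRCm38.p6, 250 bases before to 50 after a start site) were found for 9 of the 10 genes, in 13 windows. Zmat3 had none. A match was 2 adjacent motif copies, 20 bases in all and the same on both strands, with the central C and G of each copy intact and at most 3 mismatches elsewhere. This limit was set after the windows had been seen. Such a match stood in 453 of 32851 mouse promoter windows (1.38%), and in those of 4 of the genes here: Ccng1 with 1 mismatch and Trp53, Sesn1 and Bbc3 with 3 each. Cdkn1a, the p53 target that encodes the cell cycle inhibitor p21, is added for reference, with 1 mismatch. The share over all promoters is per window, whereas a gene was counted if any of its windows matched. Sesn1 had 2 windows, Bbc3 3 and Cdkn1a 2, and each matched in 1 only. Their other windows had 8 mismatches for Sesn1, 7 and 8 for Bbc3, and 7 for Cdkn1a. Capitals mark the match, all run 5′ to 3′ on the gene's strand, and none of the matches lies in an annotated exon.
Ccng1, chr11:40755412-40755531, minus strand: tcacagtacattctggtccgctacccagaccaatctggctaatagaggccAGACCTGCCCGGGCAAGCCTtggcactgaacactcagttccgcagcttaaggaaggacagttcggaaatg
Sesn1, chr10:41887216-41887335, plus strand: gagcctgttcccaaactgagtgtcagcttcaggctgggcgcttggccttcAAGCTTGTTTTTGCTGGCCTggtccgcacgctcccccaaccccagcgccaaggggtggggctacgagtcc
Bbc3, chr7:16309436-16309555, plus strand: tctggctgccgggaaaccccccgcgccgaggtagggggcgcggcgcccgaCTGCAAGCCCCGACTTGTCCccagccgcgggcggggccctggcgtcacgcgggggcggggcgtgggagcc
Trp53, chr11:69580256-69580353, plus strand: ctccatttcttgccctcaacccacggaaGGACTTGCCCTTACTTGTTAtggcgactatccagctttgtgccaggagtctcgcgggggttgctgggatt
Cdkn1a, chr17:29090878-29090975, plus strand: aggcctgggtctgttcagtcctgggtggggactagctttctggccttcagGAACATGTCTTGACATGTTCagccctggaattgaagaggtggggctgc
Only stretches with the central C and G of each copy intact were scored. Among these, the closest 20 bases in the windows of Mdm2, Gdf15, Bax, Phlda3 and Btg2 had 5 to 9 mismatches. These windows are short, and a p53 element outside them, as in an intron, would not be seen. Inside them, an element with bases between its copies or with a changed central C or G would also be missed.

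Trp53 (ENSMUSG00000059552, chromosome 11, 69580359 to 69591873 of GRCm38) was among the most abundant transcripts of these cells and among the steadiest. It stood at 1761, 1791 and 1915 CPM in libraries 1 to 3, 1815, 1765 and 1917 CPM in 4 to 6, and 1860, 1737 and 1886 CPM in 7 to 9. By CPM it ranked between place 31 and place 37 in every library, and it held 0.174% to 0.191% of all counts. Its highest and lowest libraries differed only 1.10-fold (95% interval 1.09 to 1.12), and its range of 0.14 on the log2 scale was at percentile 0.499 of the genes tested. Of the 100 genes of highest median CPM it had the second narrowest range, where the median range was 0.77. With such large counts the small spread still exceeded counting noise (chi-square test of dispersion, Benjamini-Hochberg adjusted p 6.46e-139). Trp53 was higher in libraries 3, 6 and 9 than in libraries 1, 4 and 7 without overlap, a pattern of 10.9% of all genes tested. Of the targets described here only Ccng1 had it, and of the further p53 targets listed below Trp53inp1 and Ddb2. The processed pseudogene Trp53-ps held 2 to 15 counts per library, against 34486 to 75212 for Trp53, and Wrap53, the gene that starts head to head with Trp53, ran from 6.76 to 8.61 CPM.

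**Figure D1:**
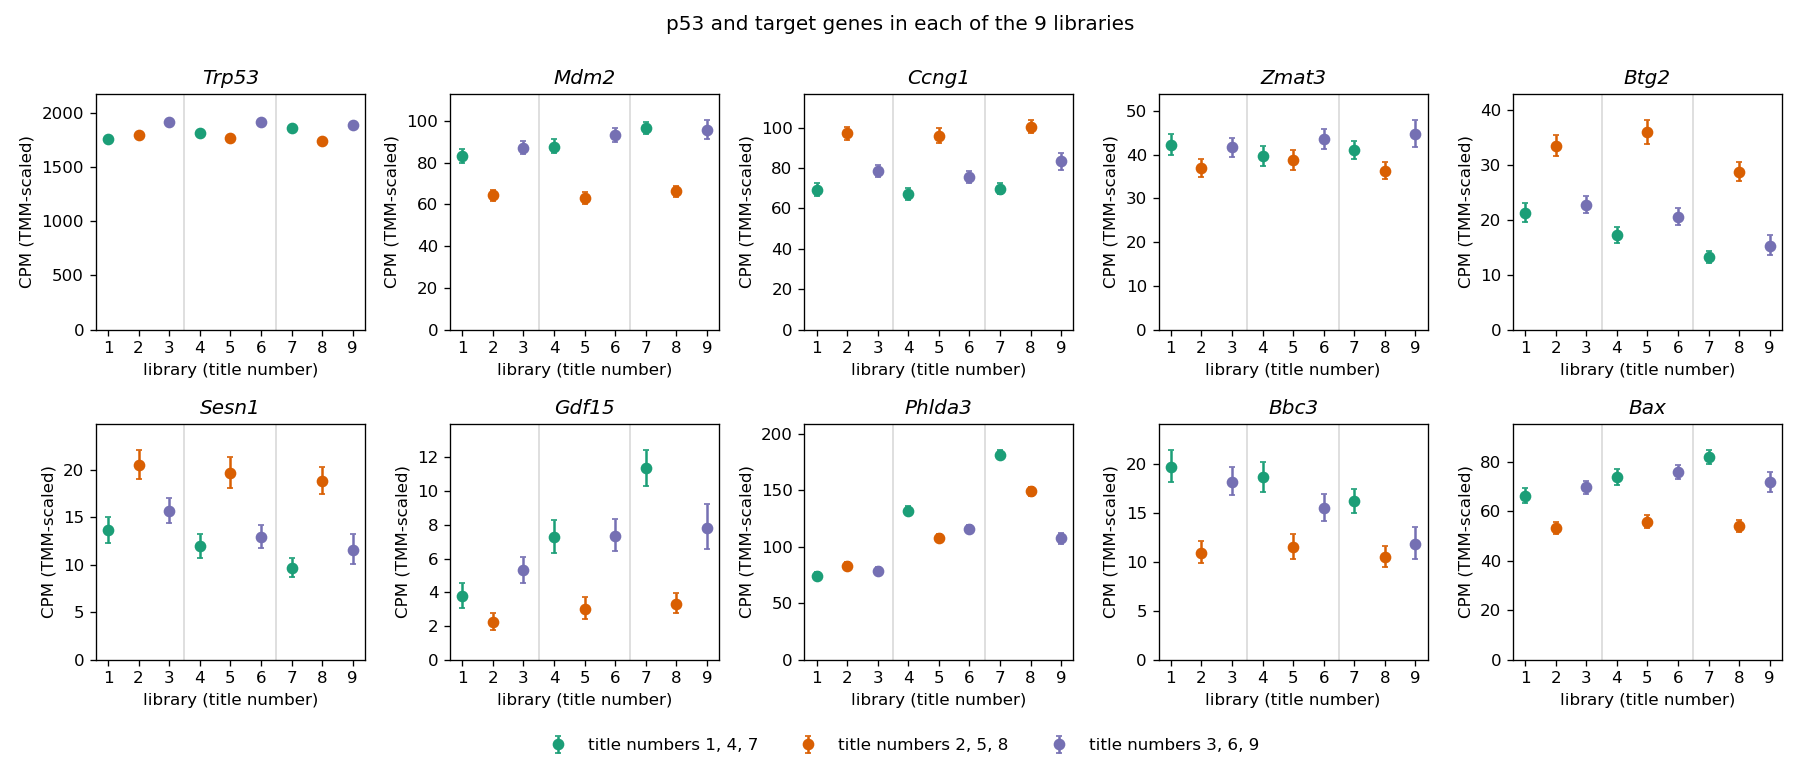
CPM of the 10 genes (vertical axes from 0) in each of the 9 libraries (horizontal axis, title number), with exact 95% Poisson intervals as bars and grey lines between blocks of 3 title numbers. Trp53 lies between 1737 and 1917 CPM in all libraries, while Ccng1, Btg2 and Sesn1 are highest and Mdm2, Bax, Bbc3, Gdf15 and Zmat3 lowest in libraries 2, 5 and 8.

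Per kb of annotated exon, the scale on which levels can be compared between genes, Trp53 stood far above its targets. Its level had a median of 449 CPM per kb (429 to 474), place 59 to 73 of all genes in the libraries. Phlda3 came next at a median level of 69.0 CPM per kb, 6.50 times lower than Trp53, followed by Bax at 44.2, Ccng1 at 22.3 and Mdm2 at 17.1 CPM per kb. Lower levels were those of Btg2 (7.77), Bbc3 (7.32), Zmat3 (3.58), Sesn1 (3.42) and Gdf15 (2.86 CPM per kb). In this order, the levels of Phlda3 and Bax, of Mdm2 and Btg2, of Btg2 and Bbc3, of Zmat3 and Sesn1, and of Sesn1 and Gdf15 overlapped over the libraries, whereas Trp53 and Phlda3, Bax and Ccng1, Ccng1 and Mdm2, and Bbc3 and Zmat3 did not. The exon length sums over all annotated isoforms, so a gene such as Zmat3, with 11435 exon bases, is understated where a short isoform is used.

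**Figure D2:**
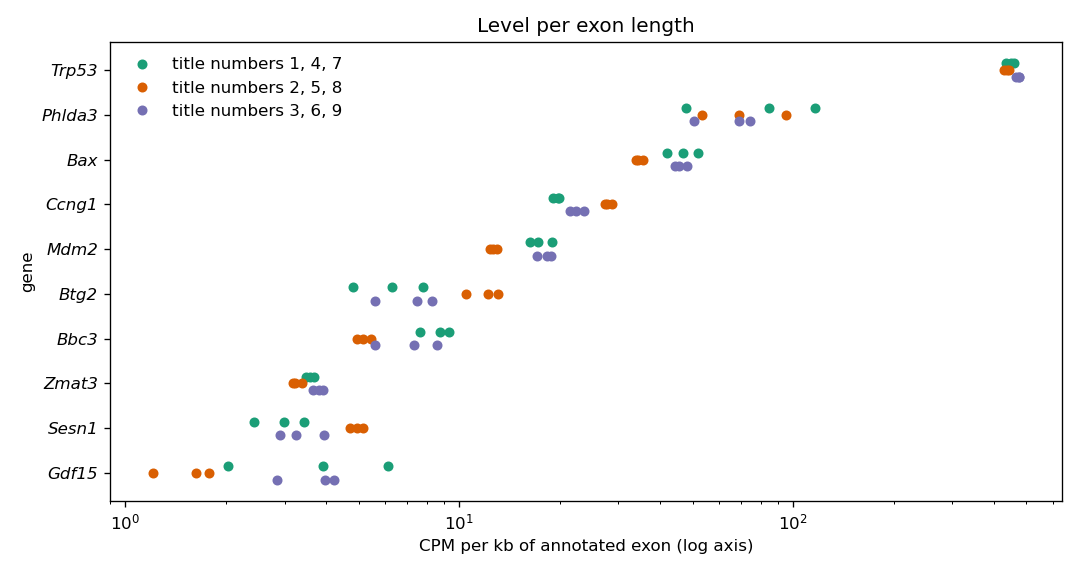
Level of each gene in CPM per kb of annotated exon (log axis), 1 point per library and colours by place of the title number in its block. Trp53 lies between 429 and 474 CPM per kb, and the next gene, Phlda3, reaches 116.

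Over the 9 libraries, 4 of the 10 genes were variable, meaning an adjusted p under 0.05 in the chi-square test and a highest library at least 2-fold above the lowest. These were Gdf15, Btg2, Phlda3 and Sesn1. Among all genes tested 28% were variable, so that the count of 4 in 10 is not far from that of genes at large. Ranges of the 10 genes had a median of 0.76 in log2 units, those of all genes tested 0.69. Each of the 10 passed the adjusted p alone, as did 94.1% of all genes. Kendall's W of the 10 genes was 0.0863 over the 9 libraries, where 1 would mean that every gene ranked the libraries alike. The highest library was library 7 for 4 of the genes and the lowest was library 8 for 3, and the rest were spread over other libraries.

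**Figure D3:**
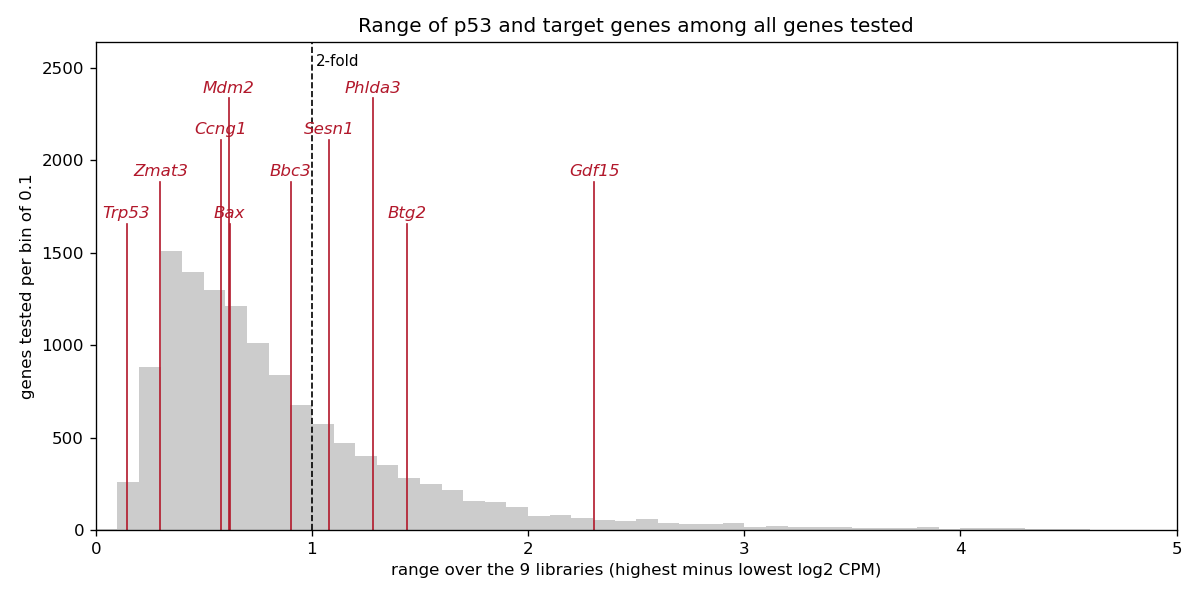
Number of genes tested (vertical axis) by range over the 9 libraries in log2 CPM (horizontal axis, bins of 0.1), with the 10 genes as red lines and a dashed line at 2-fold. Trp53 and Zmat3 stand at the narrow end, and Sesn1, Phlda3, Btg2 and Gdf15 lie past 2-fold.

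The low W hides an order that recurred in each block of title numbers. Of the 10 genes, 3 (Ccng1, Sesn1 and Btg2) were higher in libraries 2, 5 and 8 than in any other library, and 5 (Mdm2, Gdf15, Bbc3, Bax and Zmat3) were lower there than in any other. Over all genes tested, 19% lay above and 20.1% below in the same way, so each direction is common in these libraries. Mki67, which encodes the Ki-67 antigen of dividing cells, was at 62.9, 106 and 149 CPM in libraries 2, 5 and 8 and at 4.98 to 28.1 CPM in the other six. Top2a and Ccnb1, further genes of dividing cells, also did not overlap, at 65.9 to 132 against 10.0 to 37.6 CPM and at 8.81 to 21.7 against 1.98 to 8.31 CPM. The summed epithelial markers did the same (410 to 783 against 228 to 375 CPM), a sum carried by Krt8 (307, 411 and 662 CPM in libraries 2, 5 and 8, at most 283 elsewhere), while Krt18 and Cdh1 overlapped and Krt18 was highest in library 1 (156 CPM). The macrophage markers were lower (2.82 to 4.69 against 6.48 to 10.98 CPM). The part of any of these in the values of the p53 targets was not tested.

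Of the feedback genes, Mdm2 (ENSMUSG00000020184, chromosome 10, 117688875 to 117710758) was low in libraries 2, 5 and 8. It stood at 83.0, 64.3 and 87.1 CPM in libraries 1 to 3, 87.7, 63.0 and 93.3 CPM in 4 to 6, and 96.5, 66.2 and 95.8 CPM in 7 to 9. The middle library of each block had 0.675 to 0.775 times the CPM of the other libraries of its block. From highest to lowest library Mdm2 differed 1.53-fold (95% interval 1.45 to 1.62), under the limit for a variable gene. Ccng1 (chromosome 11, 40748552 to 40755311), which encodes cyclin G1, a partner of protein phosphatase 2A that acts on Mdm2, went the other way. It was at 97.2, 96.0 and 100.5 CPM in libraries 2, 5 and 8 and between 67.3 (library 4) and 83.3 CPM (library 9) in the others, again without overlap. The middle library had 1.21 to 1.44 times the CPM of its block neighbours.

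Zmat3 (chromosome 3, 32334792 to 32366014), which encodes a zinc finger protein that binds RNA and acts in splicing, differed least among the targets. Its CPM was 36.4 at the lowest (library 8), 41.0 at the median and 44.7 at the highest (library 9), a 1.23-fold difference (95% interval 1.13 to 1.34). Libraries 2, 5 and 8 were its 3 lowest, but several intervals overlapped. That of library 5 (38.7 CPM, interval 36.5 to 41.0) overlapped those of libraries 1, 3, 4 and 7. That of library 4 (39.7 CPM, interval 37.5 to 42.0) also overlapped those of libraries 2 and 8. With libraries scaled by their totals alone, Zmat3 and Bbc3 overlapped between the sets, which leaves 3 genes in place of 5 below.

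Btg2 (ENSMUSG00000020423, chromosome 1, 134075170 to 134079120), an antiproliferative gene whose protein recruits the deadenylase complex to mRNA, stood at 21.3, 33.5 and 22.8 CPM in libraries 1 to 3, 17.2, 36.0 and 20.5 CPM in 4 to 6, and 13.2, 28.8 and 15.3 CPM in 7 to 9. The lowest of libraries 2, 5 and 8 was thus above the highest of the other six, and these were the libraries of highest Mki67. The range over all libraries was 2.72-fold (95% interval 2.45 to 3.03). Sesn1 (ENSMUSG00000038332, chromosome 10, 41809935 to 41908424), which encodes sestrin 1, an inhibitor of the growth kinase mTORC1, followed Btg2 closely. It was at 13.6, 20.5 and 15.7 CPM in libraries 1 to 3, 11.9, 19.7 and 12.9 CPM in 4 to 6, and 9.67, 18.8 and 11.6 CPM in 7 to 9. Its 2.12-fold range (95% interval 1.87 to 2.41) fell below 2-fold without library 7, to 0.84 on the log2 scale. Within blocks the middle library had 1.31 to 1.95 times the CPM of the others for Sesn1 and 1.47 to 2.18 times for Btg2. With each profile centred on its own median, Sesn1 and Btg2 differed by a root mean square of 0.14 on the log2 scale over the 9 libraries.

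Gdf15 (ENSMUSG00000038508, chromosome 8, 70629393 to 70632456), a secreted stress cytokine of the TGF-beta superfamily, had the widest range of the 10 genes. It was at 3.76, 2.25 and 5.29 CPM in libraries 1 to 3, 7.25, 3.01 and 7.33 CPM in 4 to 6, and 11.3, 3.31 and 7.82 CPM in 7 to 9. Libraries 2, 5 and 8 were lowest, although the interval of library 1 (3.09 to 4.54 CPM) overlapped those of libraries 5 (2.41 to 3.72) and 8 (2.75 to 3.96). At each place in the block the value was higher in the next block. The 5.05-fold range (95% interval 3.97 to 6.50) rested on 79 counts in library 2 and 459 in library 7. Higher values at each step from block 1 to 3 through 4 to 6 to 7 to 9, at all 3 places, were seen in 13.5% of all genes tested, and lower values at each step in 12.6%. That pattern was looked for after the values had been seen. Mki67 was also higher at each step at all 3 places. Its ratios of library 7 to 1, 8 to 2 and 9 to 3 were 4.98, 2.38 and 4.83. Sesn1 was lower at each step, with library 7 at 0.710 times library 1 (95% interval 0.615 to 0.819), library 8 at 0.916 times library 2 (0.824 to 1.02) and library 9 at 0.740 times library 3 (0.628 to 0.868). For Gdf15 the same ratios were 3.02 (2.44 to 3.76), 1.48 (1.10 to 1.98) and 1.48 (1.18 to 1.85). Several single steps between adjacent blocks were within counting error, such as library 8 against library 5 for Gdf15 (1.10, 0.827 to 1.46).

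Phlda3 (ENSMUSG00000041801, chromosome 1, 135766119 to 135769136) encodes a protein that competes with the kinase AKT for membrane lipids and so restrains survival signalling. It was lowest in libraries 1 to 3, and it also differed by place within each block, most in libraries 7 to 9. It stood at 74.4, 83.2 and 78.8 CPM in libraries 1 to 3, 132, 108 and 115 CPM in 4 to 6, and 181, 149 and 107 CPM in 7 to 9. All of libraries 4 to 9 were thus above libraries 1 to 3. Library 9, however, was at 0.930 times library 6 (95% interval 0.880 to 0.982). Over all genes tested, 3.54% had libraries 4 to 6 all above 1 to 3, and 9.33% had 7 to 9 all above 1 to 3. Phlda3 was the one gene of the 10 with either pattern. None of the 10 had libraries 4 to 6 all below 1 to 3 (4.85% of all genes), 7 to 9 all below 1 to 3 (11%), 7 to 9 all above 4 to 6 (3.75%) or all below 4 to 6 (4.7%), or 3, 6 and 9 all below 1, 4 and 7 (11.3%). The 2.44-fold range (95% interval 2.32 to 2.56) came from libraries 7 and 1, and without library 7 it was 1.02 on the log2 scale, just past 2-fold. Libraries 2, 5 and 8 overlapped with the others, at 0.816 to 1.39 times their block neighbours.

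**Figure D4:**
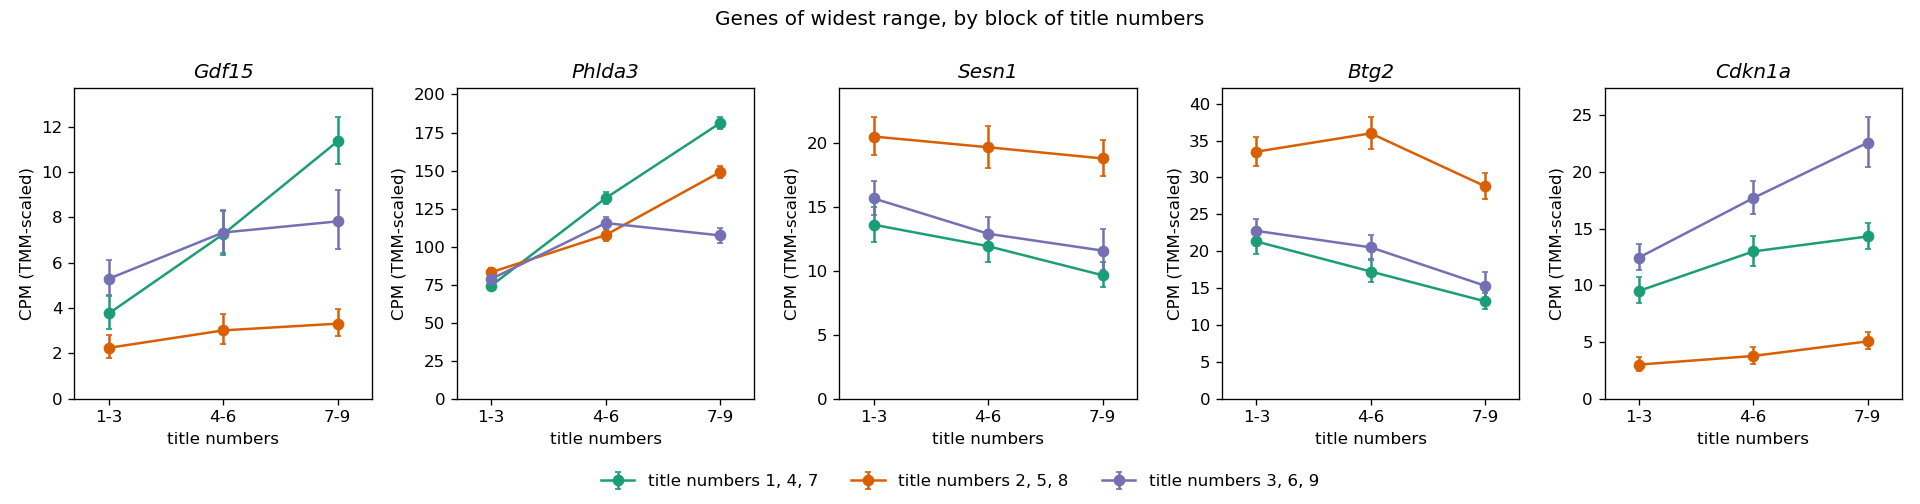
CPM (vertical axes from 0) of the 4 variable genes and of Cdkn1a by block of title numbers (horizontal axis), with 1 line for each place in the block and exact 95% Poisson intervals. Phlda3 is at 107 CPM or more in libraries 4 to 9 and at most 83.2 CPM in libraries 1 to 3, and Gdf15 and Cdkn1a are lowest in libraries 2, 5 and 8.

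Both genes of apoptosis were lower in libraries 2, 5 and 8. Bax (chromosome 7, 45461697 to 45466898), which encodes a pore-forming protein of the mitochondrial outer membrane, was at 53.3, 55.8 and 54.1 CPM there and at 66.3 (library 1) to 81.9 CPM (library 7) in the other six. Its range was 1.54-fold (95% interval 1.45 to 1.63). Bax and Mdm2 were as alike as any pair of the 10 genes, with a root mean square difference of 0.07 on the log2 scale between their centred profiles, the same to that precision as for Trp53 and Zmat3, both of which differed little. Gm45808, which shares exon bases with Bax on the same strand, held at most 3 counts. Bbc3 (chromosome 7, 16308393 to 16318205), which encodes the BH3-only protein PUMA, stood at 19.7, 10.9 and 18.2 CPM in libraries 1 to 3, 18.7, 11.5 and 15.6 CPM in 4 to 6, and 16.2, 10.5 and 11.9 CPM in 7 to 9. The interval of library 9 (217 counts, 10.3 to 13.6 CPM) overlapped those of libraries 2, 5 and 8, so the separation of Bbc3 is clear only against libraries 1, 3, 4, 6 and 7. Its range was 1.87-fold (95% interval 1.64 to 2.14). The 4 promoters with a match printed above belong to genes of different order over the libraries. Ccng1 and Sesn1 were highest and Bbc3 lowest in libraries 2, 5 and 8, while Trp53 differed by 1.10-fold.

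The other genes of the pathway were taken from fixed lists, whose choice was made with earlier results of these data known. Of 35 further p53 targets 33 passed the filter (Eda2r and Psrc1 did not), and 16 of these were variable (48.5%, against 28% of all genes tested). The filter had to be met in all 9 libraries, so a gene present in only some of them was left out. Psrc1 was such a gene, with 24, 43 and 57 counts in libraries 2, 5 and 8 and 1 to 18 counts in the others. Ranges of these 33 had a median of 1.03 in log2 units, beside the 0.69 of all genes. In libraries 2, 5 and 8, 16 of the 33 were lower than in any other library and 3 (Fas, Pidd1 and Dcxr) higher, against 20.1% and 19% of all genes. These calls compare CPM alone. Counting intervals overlapped for each of the 3 and for several of the 16, though not for Cdkn1a. For Fas, library 8 (11.5 to 13.8 CPM) overlapped library 3 (9.65 to 11.8 CPM). For Rps27l, among the 16, library 2 (29.2 to 32.9 CPM) overlapped library 9 (30.2 to 35.5 CPM). Cdkn1a had the widest range of the 33, 7.50-fold (95% interval 6.04 to 9.37), and was at 3.01, 3.78 and 5.06 CPM in libraries 2, 5 and 8 and at 9.51 to 22.6 CPM in the others. Like Gdf15, it was higher at each step between blocks at all 3 places, with ratios of library 7 to 1, 8 to 2 and 9 to 3 of 1.51, 1.68 and 1.81, whose 95% intervals all lay above 1. The single steps of library 5 against 2 (1.25, 0.951 to 1.65) and 7 against 4 (1.10, 0.968 to 1.26) were within counting error. Trp53cor1, the long non-coding RNA lincRNA-p21 of the Cdkn1a neighbourhood, was also low in libraries 2, 5 and 8, at 1.14, 1.25 and 1.12 CPM against 2.44 to 5.20 CPM. The exons of Trp53cor1, Cdkn1a, Gadd45a, Plk3 and Atr overlap those of opposite-strand genes, from which their reads cannot be told unless strand was used in counting. Atr, Ephx1 and Ep300 also share exon bases with genes on the same strand (Gm24004, Gm36961 and Gm23880), which strand would not settle.

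Gadd45a, a growth arrest and DNA damage gene, was at 100.6, 70.1 and 53.8 CPM in libraries 2, 5 and 8 and at 188 to 214 CPM in the others. Plk3, a stress-responsive polo-like kinase gene, was at 13.7, 14.4 and 18.7 against 24.8 to 52.1 CPM. Fas, the death receptor gene, went the other way with 17.8, 14.8 and 12.6 against 4.40 to 10.7 CPM. Perp, a desmosome and apoptosis gene, and Ephx1, an epoxide hydrolase gene, were abundant and not variable, at 114 to 157 and 93.1 to 152 CPM, although Ephx1 was among the 16 lower in libraries 2, 5 and 8.

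**Figure D5:**
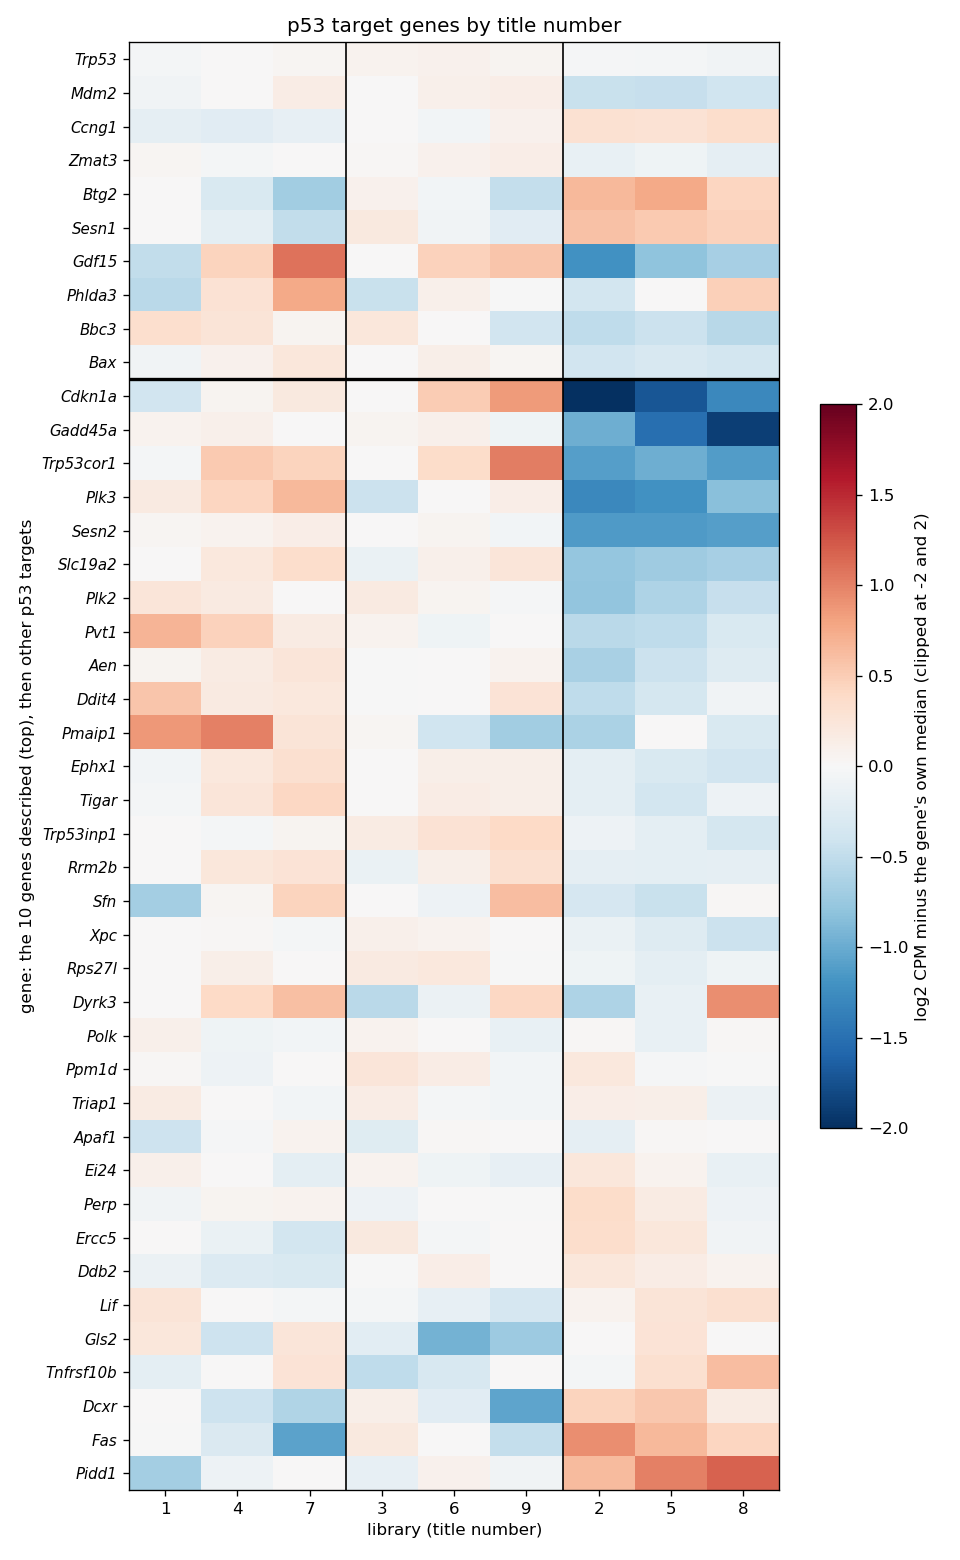
Log2 CPM minus each gene's own median (colour, limited to -2 and 2) for the 10 genes and 33 further p53 targets (rows) in the 9 libraries (columns, grouped by place in the block). The further targets are sorted by their difference between libraries 2, 5 and 8 and the other six, so their order down the rows shows that choice, with Cdkn1a at the low end and Pidd1 at the high end.

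Among 18 regulators and relatives of p53, 17 passed the filter and Trp73, at most 1 count in any library, did not. Of the 17, 3 were variable (17.6%, against 28% of all genes tested), and their median range was 0.66. In libraries 2, 5 and 8, 5 of them were lower than in any other library (Mdm4, Usp7, Ep300, Sirt1 and Cop1) and 2 higher (Chek1 and Daxx). Over all genes tested 20.1% were lower and 19% higher. The first count is thus somewhat above the share of genes at large and the second below it, both resting on few genes. Trp63, the p63 gene of basal epithelial cells, had the widest range, from 9 counts and 0.492 CPM in library 9 to 6.20 CPM in library 2 (12.6-fold, 95% interval 6.51 to 27.9), and without library 9 its range was 6.96-fold. Chek1, which encodes a checkpoint kinase, had its lowest CPM of 1.81 in library 6 and its highest of 6.27 in library 8. Its libraries 2, 5 and 8 were above the others, but the interval of library 2 (2.80 to 4.05 CPM) overlapped those of libraries 1, 3 and 7. Atr, a kinase that senses replication stress, was lowest at 51.6 CPM (library 1) and highest at 105 CPM (library 9), and its 2.04-fold range was 1.81-fold without library 1 and 1.79-fold without library 9, so that it was no longer variable. Cdkn2a, whose Arf product inhibits Mdm2, ran from 79.6 to 140 CPM, and Chek2 from 6.48 to 11.4 CPM, neither of them variable. The counts do not separate Arf from p16, which shares the Cdkn2a locus. Ep300 and Usp7, a coactivator and a deubiquitinase of p53 and Mdm2, lay between 186 and 233 and between 128 and 173 CPM.

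For each of the 4 variable genes, the 3 most alike were taken from 2980 other variable genes, leaving out predicted genes named Gm or ending in Rik, by the root mean square difference of centred log2 CPM over the 9 libraries. Sesn1 was nearest to Dixdc1 (0.07), Zbtb8a (0.07) and Lgr4 (0.08), and Btg2 to Irf1 (0.10), Tnrc18 (0.10) and Vwa5a (0.11). Phlda3 was nearest to Jph4 (0.09), Gapdh (0.13) and Jazf1 (0.16). Gapdh, a glycolytic enzyme gene often used as a reference, was at 544 CPM in library 3 and 1141 CPM in library 7. Gdf15 had no neighbour as close among these candidates, with Tcea1 (0.18), Ank2 (0.19) and Gramd1b (0.19). The measure is not scaled for range or counts, and Gdf15 had the widest range and the lowest counts of the 4.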

How the data were processed

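The authors deposited 1 table of expected counts per gene, estimated with RSEM per its name and the submitters' processing notes and already whole numbers, not normalised. The notes list RSEM 1.3.3, STAR 2.7.8a and cutadapt 2.3, with the build GRCm38. Annotation release and strand setting were not stated there. The 5 reporter and Cre rows held 0 counts and were left out. Every column matched 1 sample title.

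Counts were scaled with TMM factors (edgeR 4.0.16, R 4.3.3) from genes passing the edgeR filter without groups. The filter asked for the CPM of 10 counts at the median library size in all 9 libraries, and for 15 counts in total. Log2 CPM used a prior count of 2. A chi-square test of dispersion was run on all 12813 genes, with Benjamini-Hochberg adjustment, and was checked on simulated counts. A quasi-likelihood or DESeq2 test needs groups, which the labels do not give. Intervals are exact at 95% (Poisson for a CPM, conditional binomial for a ratio) and cover counting error only, at 18.3 to 40.4 counts per CPM. Exon lengths and coordinates are from GENCODE M21 (GRCm38), which holds 55227 of the 55487 gene IDs.

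The genes, lists and tests were chosen with earlier results of these data known. Genes named are the 10, Cdkn1a, from each further list the 5 of widest range and the 3 of highest mean CPM, 3 nearest genes per variable gene, and Mki67, Top2a and Ccnb1. Others were named after their values were seen. Alternatives were RLE factors, totals alone, other filters, prior counts of 0.5 and 5, the interquartile range and leaving out each library.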

Additional observations from a re-analysis of the deposited data

How the results depend on the processing

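The count of variable genes among the 10 was 4 with RLE size factors, with totals alone, with either other filter and with prior counts of 0.5 and 5, and 3 or 4 when each library was left out in turn. Sesn1 was the gene lost, without library 7. Measured by the interquartile range in place of the full range, with the same 2-fold limit, 1 of the 10 was variable (Gdf15), 5 of the further p53 targets, 1 of the regulators and relatives and 780 of all genes. Sesn1, Phlda3 and Btg2 then had 0.65, 0.66 and 0.74 on the log2 scale. By construction this measure leaves out the outer libraries. Without a filter on low counts 6412 of 27105 genes were variable. The number of genes lower in libraries 2, 5 and 8 was 5 with TMM or RLE factors and 3 with totals alone, when Bbc3 and Zmat3 overlapped. The number higher was 3 under all of these scalings. Other scalings moved the median gene by at most 0.05 on the log2 scale in any library. No paired analysis was possible because the labels assign no library to a group. For none of the 10 genes did a library stand far from the other 8 by Dixon's criterion. Depth limits Gdf15, Sesn1 and Bbc3 most, with 79, 212 and 217 counts at their lowest. Leaving out each library for the genes named from the further lists, with the scaling kept, was added after seeing the data. Of these, Atr was no longer variable without library 1 or library 9, and the fold from highest to lowest moved by over 1.5 times for Trp63 without library 9 and for Fas without library 7 (4.04 to 2.67).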
